A study of Mus musculus with 8 samples.

Results

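Replication-dependent histone genes are the 70 genes, of 50462 gene identifiers in the table of estimated counts, whose symbols mark them as members of the clustered H1, H2A, H2B, H3 and H4 families. They were chosen by symbol alone, from the Hist1 to Hist4 names and their newer forms, and the rule uses no measured value. The table holds 8 RNA-seq libraries of medial knee cartilage, each from 1 male wild-type C57BL/6J mouse. The 4 naive mice, aged 11 weeks, were taken at day 0 without surgery. The 4 DMM mice were sampled at day 42, aged 17 weeks, after destabilisation of the medial meniscus of the left knee, which cuts the ligament that ties the meniscus to the tibia and serves as a model of osteoarthritis after joint injury. A sham-operated group was not analysed here, and so effects of the surgery and of the 6 weeks of age cannot be told apart.

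Histones package DNA into nucleosomes. A core of H2A, H2B, H3 and H4 is wrapped by DNA, and the linker histone H1 sits where the DNA enters and leaves. A cell that copies its genome needs new histones at once, so the clustered genes are transcribed mainly in S phase, from many near-identical copies. Their mRNAs are unusual in that they lack introns and usually end in a conserved stem-loop rather than a poly(A) tail. The stem-loop is bound by SLBP, and the mRNA is degraded when DNA synthesis stops. Replication-independent variants such as H2A.Z and H3.3 are made from ordinary polyadenylated mRNAs throughout the cell cycle. Chondrocytes of mature articular cartilage divide rarely, whereas blood cell precursors in the marrow beside it divide fast.

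The 70 genes were grouped into 4 clusters by name. The Hist1 cluster on chromosome 13 held 56 of them, although 1 of these, the processed pseudogene Hist1h2al (chr13:51202727-51203065), lies far from the rest, the Hist2 cluster on chromosome 3 held 10, the Hist3 cluster on chromosome 11 held 3, and the Hist4 cluster on chromosome 6 was the single gene Hist4h4. By class there were 6 H1, 20 H2A, 19 H2B, 12 H3 and 13 H4 genes, and 3 members, Hist3h2bb-ps of the H2B and Hist1h2aj and Hist1h2al of the H2A genes, are annotated as pseudogenes. A stem-loop of the form GGNNCTTTTNANNNCC, searched on the sense strand of the GENCODE vM21 transcripts, followed the stop codon in 44 of the 70 genes, 21 to 58 bases after it (median 31). The same letters occurred in a transcript of 0.633% of 21951 protein-coding genes. In 22 of the 44 the annotated transcript ended within 100 bases of the stem-loop, and in the other 22 it ran on further, 13 of these with an AATAAA signal downstream. In the remaining 26 the annotated transcript held no such letters after the stop codon. The stem-loops of an H1, an H2B, an H4 and 2 H3 members are shown because this element defines the mRNA type that was counted, with the stem-loop in capitals and 5 flanking bases on each side, 5′ to 3′.
Hist1h1c: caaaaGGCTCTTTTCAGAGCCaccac
Hist1h2bk: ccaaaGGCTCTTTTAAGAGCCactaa
Hist1h3b: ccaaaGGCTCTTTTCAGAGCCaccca
Hist2h3c1: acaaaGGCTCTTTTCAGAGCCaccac
Hist1h4d: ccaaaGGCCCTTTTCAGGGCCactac
The form in Hist1h1c, Hist1h3b and Hist2h3c1 was found in 26 of the 44 genes, that of Hist1h4d in 7 and that of Hist1h2bk in 6.

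RefSeq promoters (build GRCm38.p6, 250 bases before to 50 after the start site) were matched for 62 of the 70 genes. The letters CCAAT, on either strand, were present in all 50 matched promoters of H1, H2A, H2B and H3 genes, in 3 of 12 H4 promoters and in 37.9% of 27025 promoters of all genes. TATAAA was present in 56.5% of the members against 14.2% of all promoters. The octamer ATTTGCAT was present in 38.9% of H2A and 37.5% of H2B promoters, in none of the matched H1, H3 and H4 promoters, and in 1.75% of all. AAACACA was present in 5 of 6 H1 promoters against 7.14% of all. These are matches of letters and not measured binding sites. The 250 bases before the start site of an H1, an H2B and an H4 gene are shown, because they hold the contrast between the classes, with these 4 motifs on either strand in capitals. Hist1h1b lies at chr13:21780626-21780875 on the minus strand, Hist1h2bk at chr13:22035571-22035820 on the plus strand and Hist1h4k at chr13:21750554-21750803 on the minus strand.
Hist1h1b: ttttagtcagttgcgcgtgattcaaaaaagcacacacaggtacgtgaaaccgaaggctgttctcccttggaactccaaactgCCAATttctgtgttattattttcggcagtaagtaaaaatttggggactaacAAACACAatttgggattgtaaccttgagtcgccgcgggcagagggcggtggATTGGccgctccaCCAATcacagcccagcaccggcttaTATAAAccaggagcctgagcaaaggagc
Hist1h2bk: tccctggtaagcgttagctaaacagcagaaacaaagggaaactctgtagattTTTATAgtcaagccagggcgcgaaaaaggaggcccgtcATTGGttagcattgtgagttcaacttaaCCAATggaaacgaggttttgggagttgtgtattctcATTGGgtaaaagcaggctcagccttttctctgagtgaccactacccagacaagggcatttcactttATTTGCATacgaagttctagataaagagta
Hist1h4k: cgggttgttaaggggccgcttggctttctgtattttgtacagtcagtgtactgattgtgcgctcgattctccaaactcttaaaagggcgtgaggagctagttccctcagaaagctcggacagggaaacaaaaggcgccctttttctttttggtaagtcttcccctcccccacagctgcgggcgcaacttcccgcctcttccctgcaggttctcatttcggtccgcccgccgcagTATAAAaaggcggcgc
The stretch upstream of Hist1h2bk is also the upstream stretch of the H2A gene Hist1h2ah, which is transcribed in the opposite direction. CCAAT was present 3 times in each of the Hist1h1b and Hist1h2bk stretches and 0 times in that of Hist1h4k.

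Each library held between 12479443 and 16548002 estimated counts. A normalised count is an estimated count divided by the library's median-of-ratios size factor. Calls rest on the Wald test of DESeq2 fitted across all genes, and needed an adjusted p (Benjamini-Hochberg) of at most 0.05 together with at least a 1.5-fold change, and all log2 fold changes are DMM over naive. Naive and DMM libraries also differed in their cell type markers. The 12 of 13 chondrocyte markers that were tested included 6 called higher in DMM, among them Acan and Col2a1, while Matn3 (log2 fold change -0.29) and Col9a1 (-0.36) were below 0 and not called, and Matn1, at most 11.97 normalised counts in a library, was not tested. Also, 8 of 10 osteoblast and osteocyte markers were called higher. By contrast 10 of 11 neutrophil lineage and 10 of 11 erythroid markers were called lower. Among all tested genes the shares were 5.92% called lower and 7.75% called higher. Of 10 B lineage markers 0 were called in either direction by DESeq2, edgeR or limma-voom, with 2 at an unadjusted DESeq2 p under 0.05. The B lineage log2 fold changes were all above 0, from 0.27 to 0.77 with a median of 0.44. Summed B lineage counts overlapped, at 3892 to 6089 in naive and 4518 to 10301 in DMM libraries. No marker of these lists stood at 0 in every library. The neutrophil lineage markers summed to at least 56908 normalised counts in each library and the erythroid markers to at least 81832. Transcripts that mark marrow cells were thus measured in all libraries labelled as cartilage. In such bulk samples fewer cells of a type and less RNA per cell cannot be told apart.

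The replication-dependent histone genes were lower in DMM cartilage as a family. Of the 70 members, 65 had enough reads for an adjusted p, and 55 of these fell and 0 rose. Over all 17760 genes tested, 5.92% were called lower and 7.75% higher. All 65 tested members had a log2 fold change below 0, with a median of -0.76 and an interquartile range from -0.83 to -0.65, against a median of -0.02 over all tested genes. The summed normalised count of the 70 members was 281551, 329749, 215556 and 184722 in naive 1 to 4 and 120655, 146656, 189142 and 140938 in DMM 1 to 4. The naive mean was 252894 ± 65242 (SD, n = 4) and the DMM mean 149348 ± 28780 (SD, n = 4), which is 59.1% of the naive mean. The sums of the 2 groups overlapped, since DMM 3 stood above naive 4. As a share of all estimated counts the members took 1.97%, 1.96%, 1.5% and 1.28% in naive 1 to 4 and 0.898%, 1.09%, 1.39% and 1.07% in DMM 1 to 4.

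The spread within groups had the same order for most members. Naive 2 was the highest of all 8 libraries for 57 of the 65 tested members, naive 4 the lowest naive library for 59, and DMM 3 the highest DMM library for 57. Every naive library stood above every DMM library for 24 of the 65, against 10.3% of all tested genes. DMM 3 also stood apart in the summed count of the erythroid markers, at 175194 against 81832 to 87736 in the other DMM libraries. The neutrophil lineage markers ranged from 129638 to 193523 in naive and from 56908 to 116619 in DMM libraries, and the erythroid markers from 158989 to 308808 and from 81832 to 175194. Like the histone sum, both marker sums had a lower mean in DMM than in naive libraries. The erythroid sums, at 259077, 308808, 181981 and 158989 in naive 1 to 4, had the order of the histone sums within the naive group. The neutrophil lineage sums did not. For the erythroid markers, as for the histones, DMM 3 was the highest DMM library and stood above naive 4. Within the DMM group neither marker list had the full order of the histones, and the neutrophil lineage markers were highest in DMM 4. The part of these markers in the difference between groups was not tested apart from the fit described next.

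**Figure D1:**
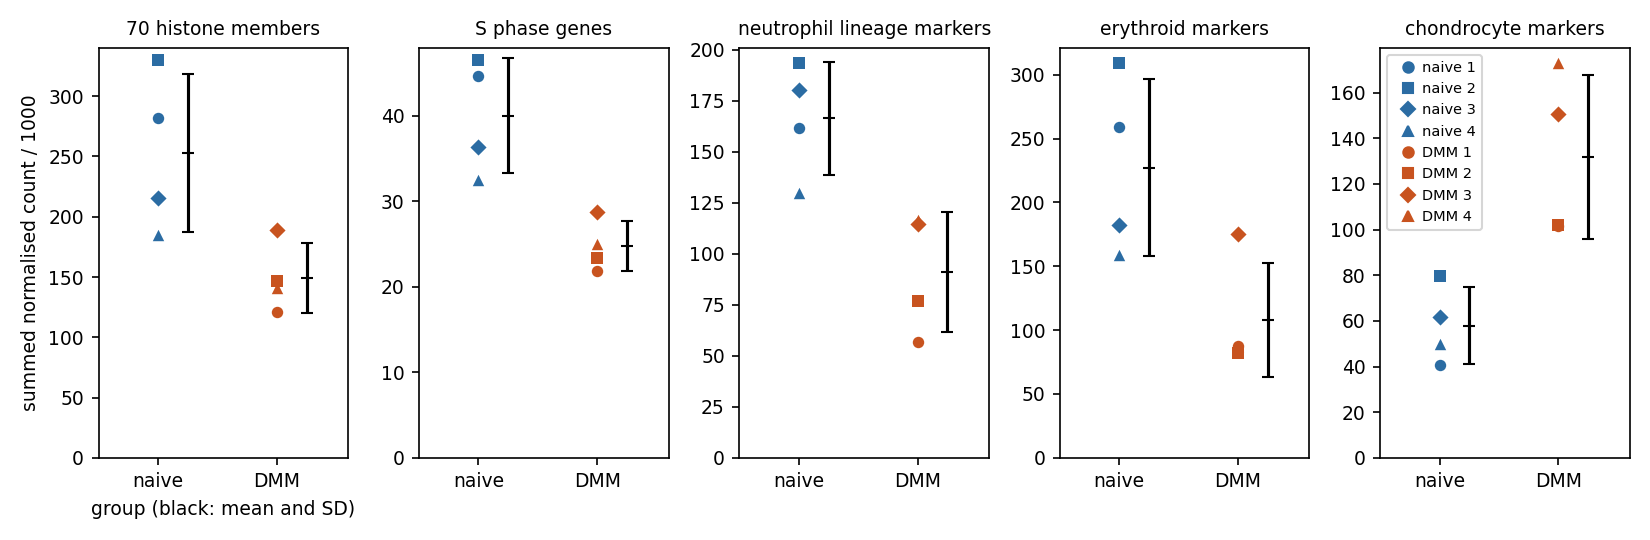
Summed normalised counts (in units of 1000, linear axis from 0) of the 70 histone members, the S phase genes and 3 marker lists in each naive (blue) and DMM (orange) library, with the group mean and SD in black. The histone sums reach 329749 in naive 2 and 189142 in DMM 3, the highest library of each group, while the chondrocyte markers are higher in every DMM library than in any naive library.

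The count of calls depended on the test, the libraries and the scaling used. edgeR's quasi-likelihood test called 36 of 65 members lower, with 4.4% of all genes called lower. Leaving out naive 2 left 24 of 64 members called and a median of -0.55, with 4.72% of all genes called lower. Leaving out DMM 1 left 36 of 65, with 4.55% of all genes called lower. With library totals as size factors, 29 of 65 were called and the median was -0.59, with 2.65% of all genes called lower. That scaling moved the median of all tested genes to 0.14 and left 489 of 2519 calls lower, against 1052 of 2429 as reported. Naive 2 had a size factor of 0.752 where its total alone gave 0.886. In a fit with the neutrophil and erythroid marker level as a covariate, 1 of 64 members was called lower, with 0.214% of all genes called lower, and the median log2 fold change was 0.11. That covariate ran from 0.15 to 0.81 in naive and from -0.85 to -0.03 in DMM libraries, so it did not overlap between groups and the marker level and the group cannot be told apart. The single member called in it was Hist2h3c1. By class, leaving out naive 2 left 1 H1, 11 H2A, 6 H2B, 4 H3 and 2 H4 genes called, and edgeR called 3, 12, 9, 7 and 5.

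**Figure D2:**
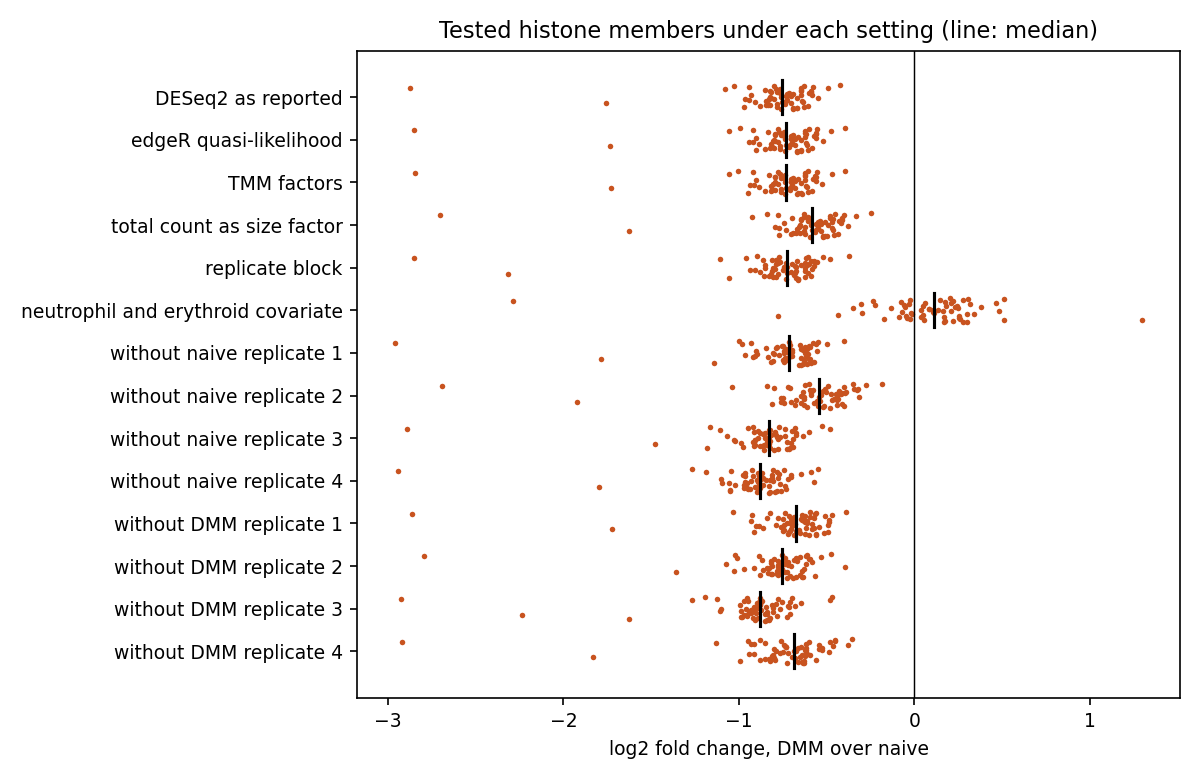
Log2 fold change (DMM over naive) of each tested histone member (points) under the reported DESeq2 fit, other fits and scalings, and with each library left out, with the median of each row as a black line. Medians lie between -0.88 and -0.54 in all rows but the covariate fit, where the median is 0.11.

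H1 genes encode the linker histones. Of the 6 members, all tested, 5 fell and the testis gene Hist1h1t was not called. Hist1h1c (ENSMUSG00000036181, GRCm38 chr13:23738808-23740367, plus strand), the member with the largest mean count, stood at 25929, 30178, 20666 and 16956 normalised counts in naive 1 to 4 and at 11337, 14033, 19726 and 13944 in DMM 1 to 4. The groups overlapped, because DMM 3 was above naive 4. Its log2 fold change was -0.67 (SE 0.20, adjusted p = 0.00743). Hist1h1e stood at 15116, 17081, 12504 and 10453 in naive and at 6665, 8071, 11341 and 8569 in DMM libraries (log2 fold change -0.67, SE 0.19, adjusted p = 0.00336), again with DMM 3 above naive 4. Hist1h1b, whose promoter is printed above, fell from 8127 ± 2374 to 4792 ± 946 (SD, n = 4 each; log2 fold change -0.76, SE 0.21, adjusted p = 0.00242). Hist1h1d and Hist1h1a fell with log2 fold changes of -0.69 each. Hist1h1t, normally expressed in spermatocytes, stood at 11.8 to 43.9 normalised counts in naive and 4.30 to 23.1 in DMM libraries (log2 fold change -0.97, SE 0.62, adjusted p = 0.279). The H1 sum went from 64683 ± 16739 to 40183 ± 8759, a log2 ratio of group means of -0.69. No H1 gene had groups that did not overlap.

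H2A genes form the largest class by summed count, with 34.4% of the naive histone sum. Of 20 members 17 were tested and 16 fell, with a median log2 fold change of -0.79. Hist2h2aa2 (ENSMUSG00000063954, chr3:96239749-96240276, minus strand) stood at 23720, 21742, 18002 and 14883 in naive and at 7635, 9677, 13450 and 12602 in DMM libraries. Every naive library was above every DMM library, and the log2 fold change was -0.85 (SE 0.20, adjusted p = 0.000241). Each 31-base word of this gene is found in the gene model Gm20632 and in other members too, so its reads could be split. Gm20632 itself had a log2 fold change of -1.14 (adjusted p = 1.25e-12). Hist1h2ai stood at 17486, 19057, 11106 and 9850 in naive and at 8152, 9255, 9491 and 7637 in DMM libraries (log2 fold change -0.74, SE 0.20, adjusted p = 0.00267). The groups did not overlap, with naive 4 only just above DMM 3. Hist1h2af and Hist1h2ah had the smallest p of the class, with log2 fold changes of -0.84 (SE 0.18, adjusted p = 0.000112) and -0.84 (SE 0.18, adjusted p = 0.00013) and no overlap between groups. Of the words of Hist1h2ai, Hist1h2af and Hist1h2ah, between 5.69% and 7.99% were unique to each gene. The tested member that was not called, Hist1h2ao, stood at 1619, 1090, 2650 and 1593 in naive and at 483.7, 25.3, 951.7 and 597.6 in DMM libraries. Its naive libraries were all above its DMM libraries, and its log2 fold change was -1.76 (SE 0.86, adjusted p = 0.132). Without DMM 2 the gene was called, with a log2 fold change of -1.36 (adjusted p = 8.46e-05). The other 3 H2A genes, Hist1h2aa, Hist1h2aj and Hist1h2al, had no adjusted p. Hist1h2aa, a testis gene, had between 0 and 6.17 normalised counts in each library.

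**Figure D3:**
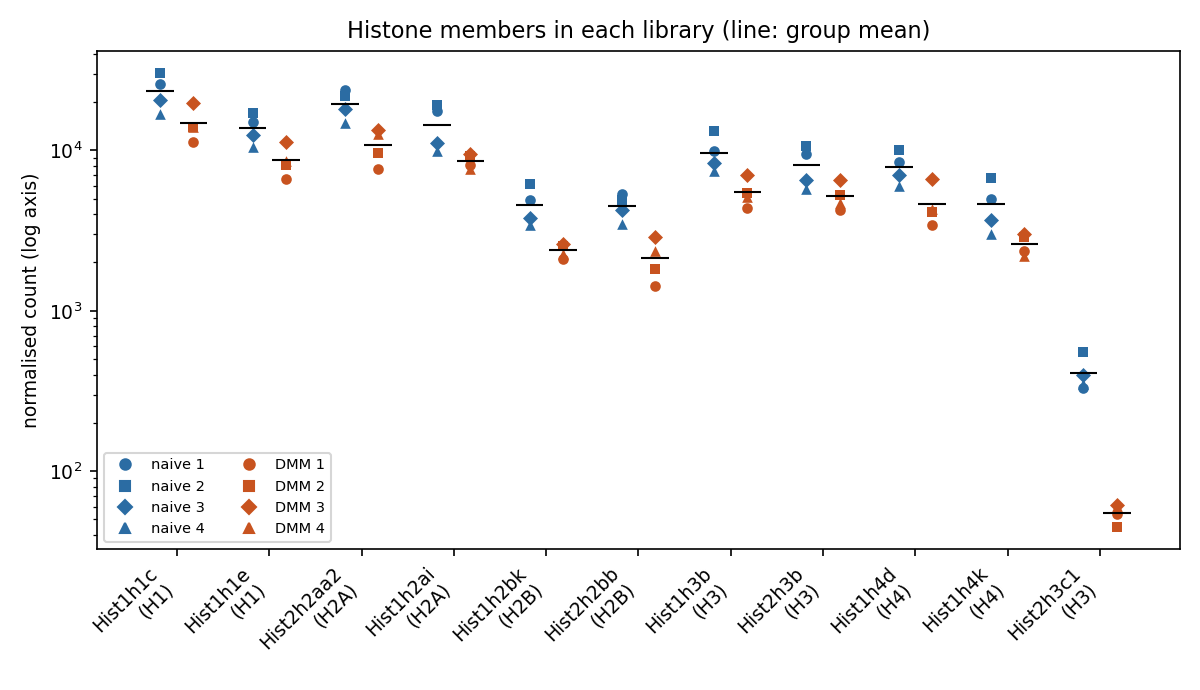
Normalised count (log axis) of the 2 members with the largest mean count in each class and of Hist2h3c1 in each naive (blue) and DMM (orange) library, with group means as black lines. Naive 2 (blue squares) and DMM 3 (orange diamonds) are the highest of their groups for most of these genes, and Hist2h3c1 goes from 331.6 or more in naive to 61.3 or less in DMM libraries.

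The summed count of the H2B genes went from 33784 ± 9626 to 18928 ± 3022 (log2 ratio -0.84). The ratios of the classes ranged from -0.84 to -0.69. Differences between classes were not tested, and the spread between libraries, which the classes share, does not measure them. Of 19 members 17 were tested and 14 fell. Hist1h2bk (ENSMUSG00000062727, chr13:22035870-22036345, plus strand) stood at 4875, 6191, 3774 and 3413 in naive and at 2093, 2546, 2605 and 2268 in DMM libraries, without overlap (log2 fold change -0.94, SE 0.18, adjusted p = 8.05e-06). It remained called with each of the 8 libraries left out in turn. Hist2h2bb stood at 5368, 4871, 4222 and 3455 in naive and at 1418, 1821, 2891 and 2345 in DMM libraries (log2 fold change -1.08, SE 0.21, adjusted p = 1.19e-05). All of its words also occur in the gene model Gm20628, which had a log2 fold change of -1.13 (SE 0.19, adjusted p = 1.81e-07). Hist3h2bb-ps (log2 fold change -1.03), Hist1h2bl (-0.96) and Hist1h2be (-0.91) also fell. The 3 tested members that were not called were Hist2h2be, Hist1h2bp and Hist3h2ba. Hist1h2ba, a testis gene, had at most 10.4 normalised counts per library, and neither it nor Hist1h2bq received an adjusted p.

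H3 was the class in which every member was tested and called, 12 of 12, with a median log2 fold change of -0.73. Hist1h3b (ENSMUSG00000069267, chr13:23752267-23752886, plus strand) stood at 9970, 13111, 8284 and 7396 in naive and at 4388, 5403, 7001 and 5140 in DMM libraries, without overlap (log2 fold change -0.82, SE 0.19, adjusted p = 0.00035). Hist2h3b fell less, from 8106 ± 2341 to 5175 ± 973 (log2 fold change -0.65, SE 0.20, adjusted p = 0.0105), and was called in 5 of the 8 fits with a library left out. Hist2h3c2 fell from 4975 ± 884 to 2588 ± 681 (log2 fold change -0.94, SE 0.19, adjusted p = 2.65e-05).

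Hist2h3c1 (ENSMUSG00000093769, chr3:96246685-96248509, plus strand) had the largest change of the family. It stood at 331.6, 550.8, 396.1 and 348.0 normalised counts in naive 1 to 4 and at 53.8, 44.96, 61.3 and 60.8 in DMM 1 to 4. All 4 naive libraries stood far above all 4 DMM libraries, and the log2 fold change was -2.88 (SE 0.21, adjusted p = 4.55e-39). It was called in all 8 fits with a library left out, where its log2 fold change ranged from -2.96 to -2.69. All of its words also occur in the gene model Gm20634, and 35.4% of them also occur in other members. Hist2h3c2 in turn has 64.2% of its words in Gm20634. Kallisto had to divide reads between such genes, and the pair of Hist2h3c1 and Gm20634 does not cover all of them. Gm20634 stood at 158.9, 135.0, 121.7 and 126.0 in naive and at 107.4, 186.3, 157.4 and 172.0 in DMM libraries, with no call (log2 fold change 0.20, SE 0.20, adjusted p = 0.551). For the pair summed, without Hist2h3c2, the naive mean was 542.0 ± 97.5 and the DMM mean 211.0 ± 33.7, a log2 ratio of -1.36. The change was thus smaller for the pair than for Hist2h3c1 alone, and the sum of the pair was lower in every DMM library than in any naive library. Per length Hist2h3c1 was a minor member, at 14.8 CPM per kilobase of transcript in naive libraries against 1103 for Hist2h3b. All words of Hist2h3b also occur in Gm20628.

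H4 was the class with the smallest share of calls, 8 of 13, and a median log2 fold change of -0.69. Hist1h4d (ENSMUSG00000061482, chr13:23581598-23582735, plus strand) stood at 8450, 9981, 6987 and 6025 in naive and at 3404, 4147, 6599 and 4304 in DMM libraries (log2 fold change -0.77, SE 0.21, adjusted p = 0.00262), with DMM 3 above naive 4. Hist1h4k, among the 9 of 12 matched H4 genes without CCAAT in the promoter window, stood at 4941, 6755, 3682 and 3027 in naive and at 2358, 2875, 3003 and 2185 in DMM libraries (log2 fold change -0.82, SE 0.22, adjusted p = 0.00219). The groups were separated by the narrow gap between naive 4 and DMM 3. Hist1h4h fell from 2579 ± 917 to 1496 ± 200 (log2 fold change -0.79, SE 0.21, adjusted p = 0.00242). Hist1h4m, Hist1h4j, Hist1h4n, Hist2h4 and Hist4h4 were tested and not called. Of these Hist1h4m (adjusted p = 0.0516) and Hist1h4j (adjusted p = 0.0529) lay just outside the threshold.

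**Figure D4:**
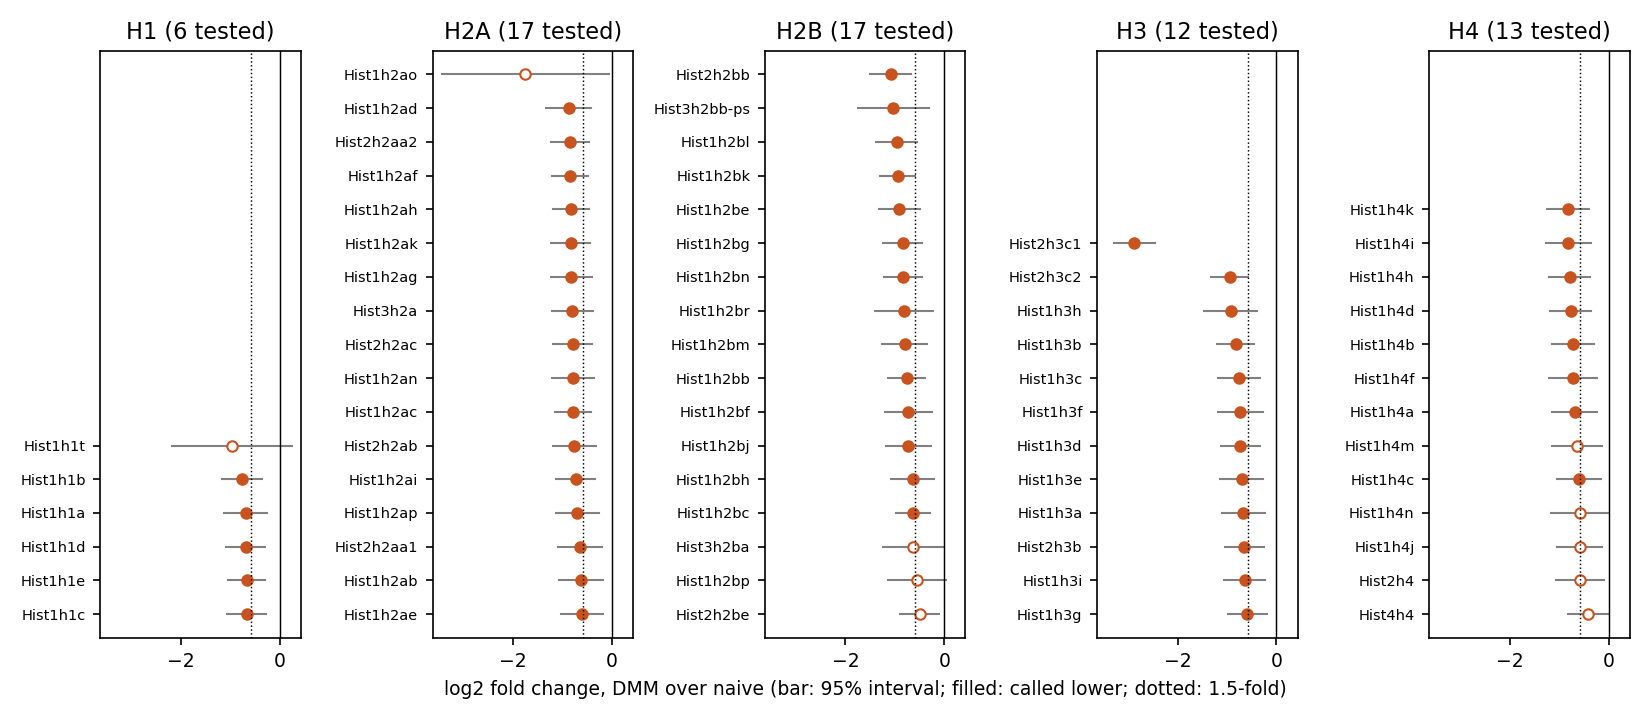
Log2 fold change (DMM over naive) with its 95% interval for the 65 tested members, by class, with called members filled, others open and the 1.5-fold limit dotted. All points lie below 0, most between -1.08 and -0.42, with Hist2h3c1 at -2.88 and Hist1h2ao at -1.76.

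By cluster, 45 of 51 tested Hist1 genes, 8 of 10 Hist2 genes, 2 of 3 Hist3 genes and 0 of 1 Hist4 genes were called lower. The share over all tested genes was 5.92%, and differences between clusters were not tested. The Hist1 sum went from 199344 ± 54118 to 118720 ± 22314 (log2 ratio -0.75) and the Hist2 sum from 50088 ± 10443 to 28433 ± 6682 (log2 ratio -0.82). Their shares of the histone sum were 78.8% and 19.8% in naive and 79.5% and 19.0% in DMM libraries. The H1, H2A, H2B, H3 and H4 shares were 25.6%, 34.4%, 13.4%, 15.8% and 10.8% in naive and 26.9%, 33.5%, 12.7%, 15.8% and 11.2% in DMM libraries. The make-up of the histone pool thus moved by less than 2 percentage points in every class.

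The small clusters were read gene by gene. Hist3h2a stood at 2267, 2624, 1449 and 1416 in naive and at 960.0, 1013, 1452 and 1026 in DMM libraries and fell (log2 fold change -0.80, SE 0.22, adjusted p = 0.00227), with DMM 3 level with naive 3. Hist3h2bb-ps fell from 122.3 ± 70.9 to 59.9 ± 15.98 (log2 fold change -1.03, SE 0.37, adjusted p = 0.0286) and was called in 3 of the 8 fits with a library left out. Hist3h2ba was not called (log2 fold change -0.63, SE 0.31, adjusted p = 0.141). Hist4h4 (chr6:136801553-136804415, minus strand) stood at 1209, 1698, 899.4 and 850.5 in naive and at 811.2, 968.0, 949.3 and 746.7 in DMM libraries. Its log2 fold change of -0.42 (SE 0.21, adjusted p = 0.134) was the smallest of the 65, and it was -0.19 without naive 2.

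Levels were compared between genes only as CPM (counts scaled to the library total) per kilobase of the longest annotated transcript, which understates a gene whose annotated transcript is longer than its usual mRNA. The order also depends on how reads were divided between copies, since 0% of the words of Hist2h2aa2 and 7.99% of those of Hist1h2ai were unique. On this scale the highest members in naive libraries were the H2A genes Hist2h2aa2 at 2482 and Hist1h2ai at 2427, followed by Hist1h2af at 1309. Hist1h3b stood at 1036, Hist1h1c at 998, Hist1h4k at 973 and Hist1h2bk at 635. In DMM libraries the same genes stood at 1533, 1638, 812, 659, 705, 622 and 373. Hist2h2aa2 and Hist1h2ai, next to each other in this order, changed places between the groups, and their difference was not tested.

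Members were also split by the annotated 3′ end of their transcripts. For this split and the next, the share called lower over all tested genes was 5.92%. Differences between the parts of a split were not tested. Of the 22 members whose transcript ends close to the stem-loop, 18 were called lower, with a median log2 fold change of -0.74. Of the 22 with a longer transcript, 17 were called lower, with a median of -0.72. Among the 26 without the letters, 21 were tested and 20 called, with a median of -0.79. Members were also split by how many of their reads could be shared between copies. In the 27 members with at least 50% of their 31-base words found in no other gene, 25 were tested and 19 called, with a median of -0.69, against 36 of 40 tested and a median of -0.79 in the other 43. Of 47414 distinct words over all members, 89.0% occurred in no gene outside the family. Each word was counted once whatever its reads, so this is not a share of reads. Members differed, since Hist1h1c had no word outside the family while Hist2h2aa2, Hist2h2bb and Hist2h3b had all of theirs there. Adding 5 gene models that share words with members (Gm20628, Gm20632, Gm20633, Gm20634 and Gm11336) left the log2 ratio of the sums at -0.76. Other genes that share words were not added, among them Trim17, Gm15444 and, for the H4 genes, 4930558J22Rik.

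Many H2A and H2B genes sit head to head, with start sites close together, and share the stretch between them. There were 14 such pairs, 172 to 305 bases apart, and 11 had both partners tested. In 9 of the 11 both partners fell, where 55 of all 65 tested members and 5.92% of all tested genes were called lower. The log2 fold changes within the 11 pairs differed by 0.01 to 0.30, with a median of 0.15. Over all tested members the interquartile range ran from -0.83 to -0.65. The differences within pairs were not tested, and were not compared with those between members that are not paired. Hist1h2ak (-0.84) and Hist1h2bn (-0.83) were the closest pair, and Hist2h2ac (-0.79) and Hist2h2be (-0.49, adjusted p = 0.0569) the farthest apart. Hist1h2ah (-0.84) and Hist1h2bk (-0.94), whose shared stretch is printed above, differed by 0.10.

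Genes that serve histone mRNA were described from a list of their own. Of 17 genes for the transcription, processing and decay of histone mRNA, all tested, 1 fell and 0 rose. This count is near the share over all tested genes, of which 5.92% were called lower. All 17 had log2 fold changes below 0, with a median of -0.24. The gene called lower was Slbp, which encodes the stem-loop binding protein. It stood at 1994, 1875, 1478 and 1388 in naive and at 854.9, 983.2, 1225 and 1121 in DMM libraries, without overlap (log2 fold change -0.69, SE 0.16, adjusted p = 0.000297), and was not called with library totals as size factors or with the marker covariate. Npat, the coactivator of the histone clusters, had a log2 fold change of -0.18 (adjusted p = 0.324) and Casp8ap2, which joins it in histone locus bodies, -0.31 (adjusted p = 0.0585). Lsm10 and Lsm11, of the U7 particle that cuts histone pre-mRNA, had -0.08 and -0.13, and both values turned above 0 with library totals as size factors. Zfp473, which also acts with U7, had -0.31 (adjusted p = 0.315).

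Of 11 replication-independent variant genes, 3 fell and 1 rose, against 5.92% called lower and 7.75% called higher over all tested genes. H2afz, which encodes H2A.Z, fell from 1979 ± 274 to 1254 ± 209 (log2 fold change -0.66, SE 0.15, adjusted p = 0.000231). H2afx, which encodes the H2A.X of the DNA damage response and can give an mRNA of either type, stood at 4279, 5028, 3057 and 2660 in naive and at 1936, 2224, 2759 and 1942 in DMM libraries (log2 fold change -0.76, SE 0.20, adjusted p = 0.00183). Cenpa, the centromeric H3, had a log2 fold change of -0.65 (SE 0.16, adjusted p = 0.000558). The H3.3 genes H3f3a and H3f3b had -0.45 (adjusted p = 0.0214) and -0.24 (adjusted p = 0.112), short of the 1.5-fold limit, and H1f0, the linker histone of resting cells, had 0.24 (adjusted p = 0.0859). The variant that rose, named after its values were seen, was the macroH2A gene H2afy2, at 58.3 to 72.5 normalised counts in naive and 79.0 to 110.6 in DMM libraries (log2 fold change 0.60, SE 0.20, adjusted p = 0.0206). The other macroH2A gene, H2afy, stood at 2446 ± 267 in naive and 1815 ± 69.5 in DMM libraries without overlap, with a log2 fold change of -0.43 (SE 0.10, adjusted p = 0.0005) that was short of 1.5-fold.

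Histone chaperones carry new histones to DNA. Of 20 genes 5 fell and 0 rose, against 5.92% called lower over all tested genes. Of the 20, 18 had log2 fold changes below 0, and the median of the list was -0.41. Those that fell were Asf1b (-0.86, SE 0.17, adjusted p = 1.16e-05), the CAF-1 subunits Chaf1a (-0.70) and Chaf1b (-0.71), Nasp (-0.59), all of which serve newly made histones, and Anp32e (-0.73), a chaperone of H2A.Z named after its values were seen. Hira, Daxx and Atrx, which place H3.3 outside replication, were not called, with log2 fold changes of -0.32, -0.04 and -0.09.

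Genes used in S phase were also lower. Of 40 genes for DNA replication and nucleotide supply, 30 fell and 0 rose, against 5.92% called lower over all tested genes. The 40 had a median log2 fold change of -0.68 and a range from -0.91 to -0.32. Their summed normalised count went from 40030 ± 6690 to 24749 ± 2943, a log2 ratio of -0.69 beside -0.76 for the histones. Rrm2, of ribonucleotide reductase, stood at 2513, 2448, 1838 and 1698 in naive and at 980.2, 1063, 1432 and 1237 in DMM libraries (log2 fold change -0.85, SE 0.17, adjusted p = 1.92e-05). Mcm5, of the replicative helicase, had -0.82 (SE 0.15, adjusted p = 2.43e-06), Pcna, the sliding clamp, -0.62 (SE 0.16, adjusted p = 0.00149), and Tyms, which makes thymidylate, -0.53 (SE 0.13, adjusted p = 0.000786), the last short of 1.5-fold. For 33 of the 40 every naive library was above every DMM library, against 24 of the 65 histones and 10.3% of all tested genes. With library totals as size factors 10 of the 40 S phase genes were called lower, and with the marker covariate 0.

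Outside the family, the 5 genes whose variance-stabilised counts over the 8 libraries followed the log2 histone sum most closely, among 13162 genes whose mean normalised count was at least 50, were Nsun2, Rpl6, Psma6, Ssbp3 and Ppm1g, with Pearson r from 0.993 to 0.996. The 8 points include the difference between the groups, and the libraries share depth and cell make-up, so these values describe the order of the libraries. Each of the 5 had a smaller log2 fold change than the histone median, from -0.42 to -0.30.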

How the data were processed

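RNA from the medial cartilage of 8 mice was sequenced, 1 library per mouse. The authors trimmed the reads, pseudo-aligned them with Kallisto and summed transcripts to genes with tximport, and the deposited values are estimated counts, of which 39.2% are not whole. The build is uncertain, because the methods pair GRCm38 with a later Ensembl release built on GRCm39, and the labels' processing notes name a human build. The labels and the methods name different library kits (a low input kit from NEB and SMART-Seq with ribosomal RNA depletion), which matters for mRNAs without a poly(A) tail and was not resolved. Use of strand was not stated. The labels do not say more of the replicates than 1 mouse each.

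Estimated counts were rounded and tested across all genes with DESeq2 1.42.0 in R 4.3.3 (Wald test, no covariates, all 8 libraries, default filters, unshrunken fold changes), the tool the study names. Alternatives were edgeR 4.0.16 (quasi-likelihood), limma 3.58.1 (voom), TMM and total-count scaling, a minimum of 10 counts in 4 libraries or no filter, no fold limit, a replicate block, a marker covariate and each library left out. On simulated counts in which 200 genes changed by 2-fold, DESeq2 called 173 in the right direction and 26 of the unchanged genes among 23315 tested. Symbols and coordinates came from GENCODE vM21 (GRCm38) by gene identifier. Word sharing was counted over the 31-base words of all annotated transcripts. Sums over members and shares of counts were described without a test, and group errors are SDs over 4 libraries. Total counts were 12479443 or more per library, and genes with few reads received no adjusted p.

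The family and its naming rule, the gene lists and the marker lists were chosen with earlier results of these data known, and the members then followed from their symbols. Named members were the 2 with the largest mean and the 2 with the smallest p in each class, any tested member that rose, the tested Hist3 and Hist4 genes, 3 testis genes and, for the related lists, a fixed set of 20 genes.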

Additional observations from a re-analysis of the deposited data

Results flagged for a closer look

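Dixon's gap test at its 95% critical value was applied to 124 groups of 4 values, over the named genes, the class and cluster sums and the gene lists. It marked 4, where chance alone would mark about 6.2. DMM 3 stood above the other DMM libraries in Hist3h2a, at 1452 normalised counts against 960.0 to 1026, in the Hist3 cluster sum, at 1758 against 1161 to 1222, and in the summed erythroid markers, at 175194 against 81832 to 87736. DMM 2 stood below the other DMM libraries in Chaf1a, at 514.3 against 616.5 to 631.6.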

How the results depend on the processing

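The log2 ratio of the summed counts stayed below 0 and moved by less than the spread between libraries for the family, the 5 classes and the 4 clusters under TMM factors, library totals, per-length values, members with mostly unique words and with each library left out. For the whole family it ranged from -0.89 to -0.61 with a library left out. Counts of calls moved more. Of the members called lower (55 as reported), edgeR gave 36, library totals 29, the neutrophil and erythroid covariate 1, and leaving out a library 24 (naive 2) to 60 (naive 4). Among the members with mostly unique words, 19 of 25 were called. All genes called (2429 as reported) became 133 with the covariate and 4010 without the fold limit, and 1858 to 2842 with a library left out. Variant genes called (4) became 2 with library totals, 0 with the covariate, 7 without the fold limit and 2 to 4 with a library left out. Processing genes called (1) became 0 with library totals, 0 with the covariate and 2 without the fold limit. Chaperone genes called (5) became 2, 0 and 14 under the same settings. S phase genes called lower (30) became 10 with library totals and 0 with the covariate. The covariate does not overlap between the groups, and the cause of these shifts was not tested. With library totals the median of all tested genes moved from -0.02 to 0.14.

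Log2 fold changes that reversed under the covariate, none of them called there, were those of Hist1h1b (0.17), Hist1h1c (0.30), Hist1h1e (0.22), Hist1h3b (0.0396), Hist1h4d (0.24), Hist1h4h (0.0495), Hist2h2aa2 (0.0609), Hist2h3b (0.22), Hist3h2a (0.15), Hist3h2ba (0.51), Hist3h2bb-ps (0.31), Hist4h4 (0.21), Npat (0.17), Casp8ap2 (0.10), Lsm10 (0.0089), H2afx (0.0618), H3f3a (0.14), H3f3b (0.0821), Nasp (0.0024) and Pcna (0.0646). Lsm10 also reversed with library totals (0.0853) and without naive 2 (0.0484), and Lsm11 with library totals (0.0238).

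Replicate numbers are shared between the groups but do not pair the samples, since same-numbered naive and DMM libraries correlated at 0.01, 0.08, -0.18 and 0.10 in their deviations from the group means, and not every library correlated best with its own number. With the replicate block 54 of 64 members and 2081 of all genes were called.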

Other observations

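Gm11336, a gene model that holds 33.3% to 45.7% of the 31-base words of the H2A members Hist1h2af, Hist1h2ah, Hist1h2ai and Hist1h2ao, stood at 1017, 2194, 2848 and 1503 normalised counts in naive 1 to 4 and at 223.6, 884.5, 3189 and 2781 in DMM 1 to 4 (log2 fold change -0.10, SE 0.79, adjusted p = 0.956).

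Among the H2A members without an adjusted p, Hist1h2aj was listed at 0 in naive 1, naive 4, DMM 3 and DMM 4 and at 15.4 normalised counts in DMM 2, while Hist1h2al ranged from 3.91 to 20.4 over the 8 libraries. Outside the histones, the chaperone list held 1 gene with every DMM library above every naive library, Ipo4, an importer of histones, at 216.6 to 276.7 normalised counts in naive and 304.0 to 387.3 in DMM libraries (log2 fold change 0.45, adjusted p = 0.00968, short of 1.5-fold). It was named after its values were seen.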
